A study of Mus musculus with 24 samples.

Results

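The genes described here are 33 genes known for their expression in astrocytes, followed in RNA from the CA1 subfield of the mouse hippocampus. They were chosen by symbol from a list. The rule uses no measured value, but the list was drawn up with earlier results of these data known. All 33 were found among the 38355 genes listed in the count tables, and all 33 were among the 16744 genes tested over the 24 libraries. RNA with a poly(A) tail was sequenced from dissected CA1 of C57BL/6J mice aged 3 to 5 months. All mice carried the floxed Kat2a allele (Kat2a fl/fl), and Kat2a encodes a histone acetyltransferase. Control mice were Kat2a fl/fl without a named Cre, and conditional knockout mice (cKO) were Kat2a fl/fl with CamKII_alpha-cre+. Naive mice had no exposure, and the others were exposed to novelty for 15 min. The groups were control naive (n = 6), control novelty (n = 5), cKO naive (n = 6) and cKO novelty (n = 7).

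Astrocytes take up the glutamate and potassium that neurons release, turn glutamate into glutamine, buffer water and ions at the vessel wall, and store most of the glycogen of the brain. Gap junctions join them into networks. The CamKII alpha promoter is active in excitatory neurons of the forebrain, so this Cre is not one directed at astrocytes. The tissue is bulk, and in bulk RNA fewer cells of a type and less RNA per cell cannot be told apart.

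Over all 7 tests made here (novelty in each genotype, genotype in each exposure, both averages and the interaction), 9 of the 33 genes (27.3%) passed at least once and 24 passed in none, beside 18.3% of all genes (3068 of 16744) that passed at least once. A gene is said to pass when its adjusted p was below 0.05 in edgeR's quasi-likelihood test with Benjamini-Hochberg adjustment over all genes tested. After novelty, in the average over genotypes, the glycogen regulator Ppp1r3c and the gap junction gene Gjb6 rose most, followed by F3, Id4 and Glul. Sox9 and Tril fell. F3, Id4, Glul and Tril passed in that average and in neither genotype alone. In the average over exposures S100b, Glul and Cldn10 were lower in cKO mice, a share of the 33 (9.09%) below that of all genes (12%). Of these, Glul and Cldn10 passed in neither exposure alone. Glul was the 1 gene in both sets, novelty and genotype. The 33 genes had mean levels of 18.37 to 3560 reads per megaread assigned, while those of all tested genes began at 0.2258. Genes with few reads can pass less easily. The share that passed among genes of like level was not computed, here or below.

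The promoters of 4 of the genes that rose after novelty are shown because these genes had the largest rises (Ppp1r3c, Gjb6) or held repeated matches to a motif of an activity-regulated factor (F3, Id4). Each is the 250 bases before the annotated start, read 5′ to 3′ on the strand of the gene, from RefSeq (GRCm38.p6). The windows are chr19:36736605-36736854 (minus strand), chr14:57133612-57133861 (minus strand), chr3:121723287-121723536 (plus strand) and chr13:48260866-48261115 (plus strand). RefSeq and the authors' tables, from which the gene positions below were taken, place the starts of Ppp1r3c and Id4 at different bases. Capitals mark matches to any of the motifs named after the sequences.
Ppp1r3c: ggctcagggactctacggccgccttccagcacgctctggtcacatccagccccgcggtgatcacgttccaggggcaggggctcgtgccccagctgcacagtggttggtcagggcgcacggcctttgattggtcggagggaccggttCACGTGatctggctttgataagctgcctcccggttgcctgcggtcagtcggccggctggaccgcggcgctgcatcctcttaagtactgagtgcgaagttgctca
Gjb6: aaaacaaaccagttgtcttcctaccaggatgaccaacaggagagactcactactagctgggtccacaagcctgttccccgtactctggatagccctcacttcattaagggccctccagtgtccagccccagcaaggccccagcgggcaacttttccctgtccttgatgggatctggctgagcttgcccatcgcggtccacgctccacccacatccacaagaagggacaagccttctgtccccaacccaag
F3: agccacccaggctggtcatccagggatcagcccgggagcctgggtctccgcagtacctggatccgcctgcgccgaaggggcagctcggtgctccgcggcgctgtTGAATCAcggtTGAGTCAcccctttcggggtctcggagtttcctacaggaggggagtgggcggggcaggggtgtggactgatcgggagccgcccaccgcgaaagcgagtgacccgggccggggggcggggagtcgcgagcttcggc
Id4: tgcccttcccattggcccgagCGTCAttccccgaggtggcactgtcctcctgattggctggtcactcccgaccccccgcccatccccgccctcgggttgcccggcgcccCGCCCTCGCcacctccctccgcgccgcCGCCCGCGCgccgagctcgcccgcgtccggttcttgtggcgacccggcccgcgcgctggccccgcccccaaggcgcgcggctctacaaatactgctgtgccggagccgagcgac

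Of the 33 genes, 30 matched the RefSeq promoter table, with 35 promoters among them. Both strands of each window were searched for the letters of 8 motifs, and the same was done in all 32851 promoters of the table. The AP-1 motif TGANTCA, bound by Fos and Jun proteins, was found in 2 of the 35 promoters (5.71%) and in 6.75% of all promoters. F3 held 2 of these matches, which began 146 and 135 bases before the start. The EGR motif GCGNGGGCG was found in 3 of the 35 (8.57%), those of Fgfr3, Gldc and Id4, and in 4.7% of all promoters. Id4 held it at 2 places, 141 and 114 bases before the start.

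The full CRE motif TGACGTCA was in 0 of the 35 promoters and in 1.55% of all. Its core TGACG, which the full motif contains, was in 3 of the 35 and in 17.8% of all, and in Id4 it began 229 bases before the start. The E-box CACGTG was in 3 of the 35 and in 6.02% of all, with 1 match in Ppp1r3c, 104 bases before the start. The Gjb6 window held none of the 8 motifs, and neither did that of Glul, which also rose and is not shown. F3 and Id4 were chosen for their matches, so finding matches there was given in advance. The part of these motifs in the novelty results was not tested. The other motifs were GTGGGAA of RBPJ (2 of 35, 5.42% of all), TATAAA of the TATA box (2 of 35, 12.4% of all) and TTGGCA of NFI factors (3 of 35, 12.3% of all).

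The libraries held between 10.7 M and 35.8 M reads assigned to genes, with a median of 19 M. Levels are given as CPM, reads of a gene per megaread (M) assigned, with TMM factors. Kat2a was at 56 to 70.3 CPM in the 11 control libraries and at 31.2 to 39.3 CPM in the 13 cKO libraries, and these ranges did not overlap. Markers of CA1 pyramidal neurons summed to 5320 to 8070 CPM and those of dentate granule neurons to 326 to 753 CPM. Marker genes of the choroid plexus and ependyma, which neighbour the hippocampus, summed to 29.1 to 128 CPM, with the highest value in a control naive library. The 33 astrocyte genes themselves summed to 8910 to 10700 CPM in control naive, 9850 to 10400 in control novelty, 9440 to 9700 in cKO naive and 8590 to 10200 in cKO novelty libraries. The control novelty libraries all lay above the cKO naive ones, and the other pairs of ranges overlapped. No astrocyte gene was without reads in any library, and the lowest count was 175 reads, of Plcd4.

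A few libraries stood apart for the astrocyte genes as a whole. In cKO novelty library 5 the median gene was 0.118 below its own mean over the 24 libraries (log2), and 4 of the 33 were above that mean. Control naive library 6 had a median of -0.085 with 7 genes above the mean, and cKO naive library 5 a median of -0.083 with 13 above it. Control naive library 1 was the highest, with a median of 0.094 and 25 genes above the mean. Fits without each library are given beside the results that they changed.

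**Figure D1:**
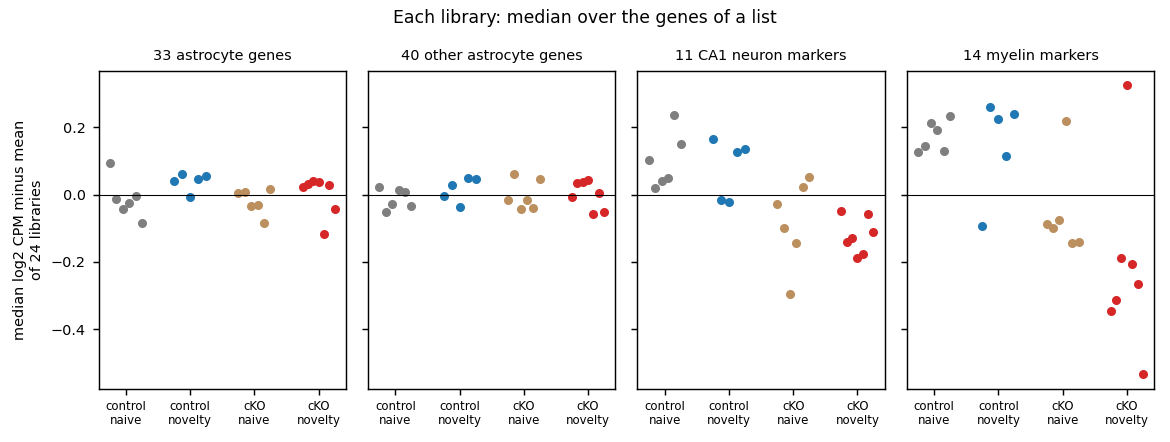
Each point is 1 library, and the vertical axis gives the median, over the genes of a list, of log2 CPM minus the mean of the 24 libraries. The library medians of the astrocyte genes lie within 0.118 of 0 in all groups. Those of the myelin markers in cKO novelty libraries lie below 0 except in library 4 (0.325).

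Compared per length of exon, the astrocyte genes covered a wide range of levels. Glul, the glutamine synthetase that makes glutamine from glutamate, was highest at a mean of 406 RPKM, which is CPM divided by exon length in kilobases. The glutamate transporter Slc1a2 followed at 271 RPKM and the glycolytic enzyme Aldoc at 266 RPKM. The group means of Slc1a2 (262 to 281) and Aldoc (260 to 273) overlapped, so these neighbours in the order did not differ beyond their spread. The second glutamate transporter Slc1a3 was at 92.3 RPKM, the sodium pump subunit Atp1b2 at 90.2, the calcium-binding protein S100b at 87.1, the orphan receptor Gpr37l1 at 83.7, the intermediate filament Gfap at 78.4 and the membrane protein Mlc1 at 76.2 RPKM. At the other end were the transcription factor Sox9 at 4.83, the sulfur amino acid enzyme Cbs at 4.37, the proline dehydrogenase Prodh at 3.27 and the phospholipase Plcd4 at 2.61 RPKM.

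**Figure D2:**
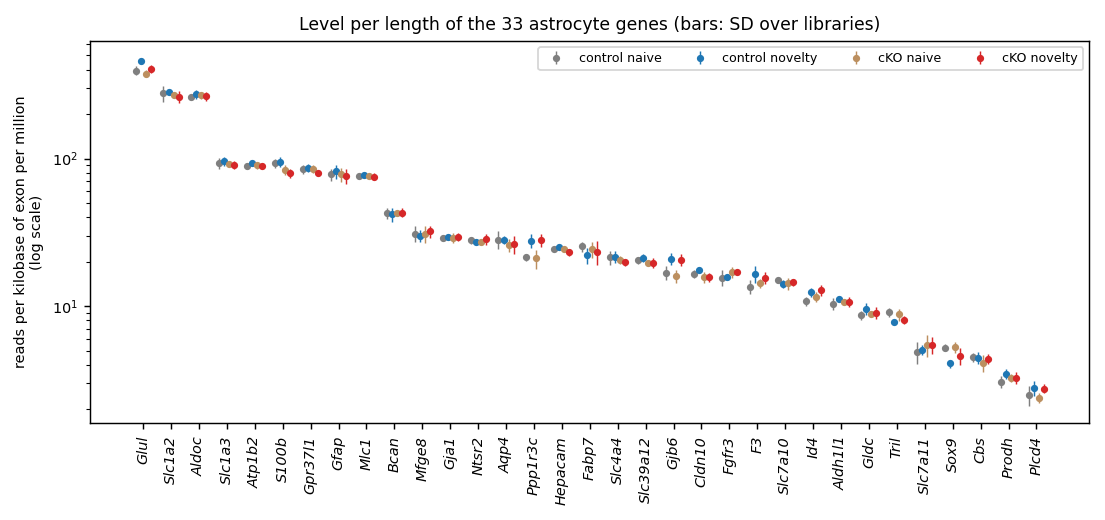
Mean level per length (RPKM, log scale) of each of the 33 genes in the 4 groups, ordered from the highest to the lowest, with bars for the SD over libraries. The spread between genes, from 406 RPKM for Glul to 2.61 RPKM for Plcd4, is far wider than the spread between groups of any gene.

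The genes also differed in how much they varied between libraries of 1 group. The median SD within groups was 0.11 on the log2 scale for the 33 genes and 0.0951 for the 8527 tested genes in the same range of mean CPM. Fabp7, a fatty acid binding protein of glial progenitors (0.2065), Slc7a11, the cystine-glutamate exchanger (0.2052), the water channel Aqp4 (0.1824) and the secreted protein Mfge8 (0.1635) varied most. The cell adhesion protein Hepacam (0.0598), Atp1b2 (0.0653) and Mlc1 (0.0667) varied least.

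Few of these genes passed for novelty in control mice. Of the 33, 2 passed, Ppp1r3c higher and Sox9 lower, which is 6.06% beside 1.22% of all genes tested (196 of 16100). At an unadjusted p below 0.05 by edgeR there were 10 of the 33, beside 11% of all genes (1778 of 16100). The median log2 difference of the 33 was 0.035, against -0.014 over all genes. In cKO mice 2 of the 33 passed, Gjb6 and Ppp1r3c, both higher, beside 2.41% of all genes (393 of 16339), and the median was 0.003 against -0.01. Averaged over both genotypes, 7 of the 33 passed (21.2%), 5 higher and 2 lower, beside 6.55% of all genes (1097 of 16744). The median there was 0.017 against -0.013 over all genes.

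**Figure D3:**
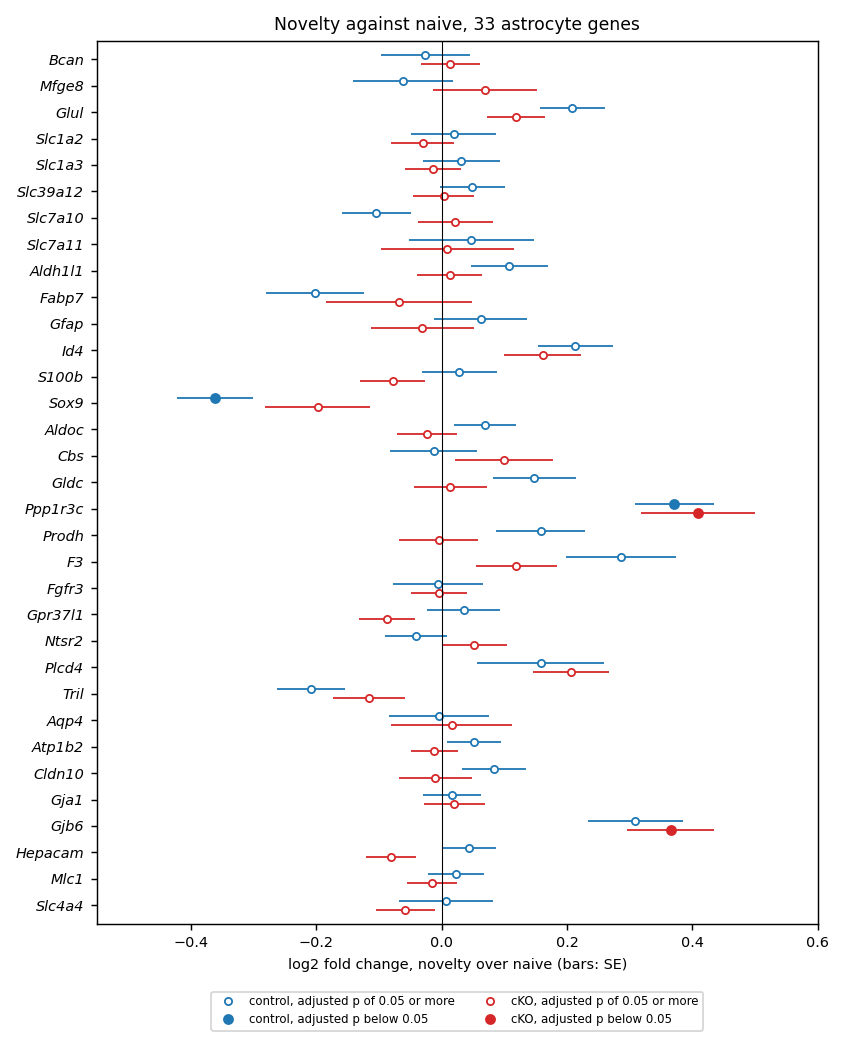
The log2 fold change of novelty over naive, with its SE, for the 33 genes in control (blue) and cKO mice (red), grouped by role. Filled points passed the test: Sox9 (-0.36) and Ppp1r3c (0.37) in control, and Gjb6 (0.36) and Ppp1r3c (0.41) in cKO mice.

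Among the 5 metabolic enzymes and regulators, Ppp1r3c passed in both genotypes. It encodes protein targeting to glycogen, the subunit that brings protein phosphatase 1 to glycogen and so favours glycogen synthesis. The gene lies on the minus strand of chromosome 19, at 36731737 to 36736653 in the authors' tables, whose build is GRCm38.p2 per the submitters' notes, as for the positions that follow. Control naive libraries ranged from 53.7 to 63.2 CPM with a median of 58.3 CPM, and the 5 control novelty libraries were at 67.6, 67.8, 77.3, 80.9 and 84.7 CPM. All 5 novelty libraries were above all 6 naive ones. The log2 difference was 0.37 ± 0.06 (SE), with an adjusted p of 0.006617 by edgeR.

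In cKO mice Ppp1r3c ranged from 43.4 to 68 CPM (median 58.9) in naive and from 64.9 to 87.2 CPM (median 78.7) in novelty libraries. The groups overlapped by the highest naive library. The log2 difference was 0.41 ± 0.09, with an adjusted p of 0.02562 by edgeR, and it did not pass without a filter on low counts (adjusted p 0.06589) or in 7 of the 13 fits that left out 1 library (cKO naive 2, 3 or 6, or cKO novelty 1, 2, 4 or 6; highest adjusted p 0.07132). Averaged over genotypes, the difference was 0.39 ± 0.06 with an adjusted p of 7.834e-05 by edgeR.

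The other 4 metabolic genes did not pass. Prodh had a log2 difference of 0.16 and Gldc, the glycine decarboxylase, of 0.15 in control mice, and both were near 0 in cKO mice (-0.01 and 0.01). Aldoc (0.07 in control, -0.02 in cKO mice) and Cbs (-0.01 and 0.10) were closer to 0 in control mice.

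Among the 8 genes for water, ion, adhesion and gap junction proteins, Gjb6 passed. It encodes a connexin of astrocyte gap junctions and lies on the minus strand of chromosome 14 at 57123303 to 57133611. In cKO mice it was at 37.2 to 50.6 CPM (median 42.8) in naive and at 46.8 to 60.2 CPM (median 57) in novelty libraries. The groups overlapped, with 1 novelty library within the naive range. The log2 difference in cKO mice was 0.36 ± 0.07, with an adjusted p of 0.008665 by edgeR.

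In control mice Gjb6 was at 40.7 to 53.6 CPM (median 43.2) in naive libraries and at 50, 51.3, 57.6, 58.1 and 63.5 CPM in novelty libraries. That difference of 0.31 ± 0.08 had an adjusted p of 0.06767 by edgeR and did not pass. Averaged over genotypes, Gjb6 was higher by 0.34 ± 0.05 on the log2 scale, with an adjusted p of 0.0001589 by edgeR.

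Gja1, the other main astrocyte connexin, did not pass for novelty. It was at 280 to 321 CPM (median 295) in control naive libraries and at 277, 302, 304, 309 and 312 CPM in control novelty libraries. In cKO mice it was at 258 to 314 CPM (median 303) in naive and at 275.9 to 328 CPM (median 305) in novelty libraries. The 4 ranges overlapped, and the log2 differences were 0.02 in control and 0.02 in cKO mice. Aqp4, Mlc1, Hepacam, Atp1b2, Cldn10 and the bicarbonate transporter Slc4a4 did not pass in either genotype, with log2 differences between -0.08 and 0.08.

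Of the 6 genes for transmitter and amino acid transport and glutamine synthesis, Glul passed for novelty in the average over genotypes. It lies on the plus strand of chromosome 1 at 153899944 to 153909723. GENCODE M21 places Teddm2 and Mir8114 over its exons, whose reads these unstranded libraries could not tell from its own. Whether such reads were counted for Glul or left out as ambiguous is not known, as the authors' annotation release is not given. Control naive libraries were at 1155 to 1405 CPM (median 1308) and control novelty libraries at 1430, 1450, 1520, 1590 and 1600 CPM, with no overlap. In cKO mice naive libraries were at 1178 to 1319 CPM (median 1242) and novelty libraries at 1175 to 1423 CPM (median 1367). Here the groups overlapped, through novelty library 5, the lowest of the 13.

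The log2 difference of Glul was 0.21 ± 0.05 in control and 0.12 ± 0.05 in cKO mice, with adjusted p of 0.07082 and 0.2327 by edgeR. Averaged over genotypes it was 0.16 ± 0.04, with an adjusted p of 0.003184 by edgeR. The glutamate transporters did not pass. Slc1a2 was at 3167 to 4335 CPM (median 3528) in control naive and at 3580, 3630, 3670, 3780 and 3780 CPM in control novelty libraries. In cKO mice it was at 3429 to 3589 CPM (median 3535) in naive and 2961 to 3881 CPM (median 3414) in novelty libraries, and all ranges overlapped. The log2 differences of Slc1a3, Slc7a10, Slc7a11 and the zinc transporter Slc39a12 lay between -0.10 and 0.05 in either genotype.

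Of the 6 genes for identity, cytoskeleton and transcription factors, Sox9 fell. Sox9 is a transcription factor that sets glial fate and stays on in adult astrocytes, and it lies on the plus strand of chromosome 11 at 112782224 to 112787760. Control naive libraries were at 20.5 to 23.2 CPM (median 21.4) and control novelty libraries at 15.7, 15.9, 17.4, 17.5 and 18.1 CPM. All 5 novelty libraries were below all 6 naive ones. The log2 difference was -0.36 ± 0.06, with an adjusted p of 0.006044 by edgeR.

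In cKO mice Sox9 was at 18.6 to 24.6 CPM (median 22.1) in naive and at 16 to 23.1 CPM (median 19.2) in novelty libraries, which overlapped. The log2 difference there was -0.20 ± 0.08, with an adjusted p of 0.2922 by edgeR. Averaged over genotypes the log2 difference of Sox9 was -0.28 ± 0.05, with an adjusted p of 0.001274 by edgeR.

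Id4, an inhibitor of DNA binding by basic helix-loop-helix factors, rose in the average over genotypes. It lies on the plus strand of chromosome 13 at 48261427 to 48264036, with A330033J07Rik and Gm49291 annotated over its exons. Control naive libraries were at 36.9 to 45.3 CPM (median 41.7) and control novelty libraries at 42.8, 47.3, 48.4, 50.8 and 51.1 CPM. The cKO libraries were at 39.4 to 48 CPM (median 45) in naive and at 43.6 to 56.1 CPM (median 49.5) in novelty libraries. Both pairs of groups overlapped. The log2 differences were 0.21 in control and 0.16 in cKO mice, and the average was 0.19 ± 0.04 with an adjusted p of 0.007047 by edgeR.

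Gfap, the filament protein that rises in reactive astrocytes, did not pass. It was at 297 to 377 CPM (median 326) in control naive and at 291, 339, 350, 355 and 394 CPM in control novelty libraries. In cKO mice it was at 275.7 to 381 CPM (median 334) in naive and at 286 to 385 CPM (median 308) in novelty libraries, so the 4 groups overlapped. Its log2 differences were 0.06 in control and -0.03 in cKO mice. S100b (0.03 and -0.08), the folate enzyme Aldh1l1 (0.11 and 0.01) and Fabp7 (-0.20 and -0.07) did not pass for novelty either.

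Of the 6 receptors, signalling and surface proteins, F3 rose and Tril fell in the average over genotypes. F3 is tissue factor, which starts blood coagulation, and it lies on the plus strand of chromosome 3 at 121723537 to 121735052. Control naive libraries were at 29.5 to 40.2 CPM (median 33.6) and control novelty libraries at 35.6, 35.6, 44.5, 45 and 47 CPM. Those of cKO mice were at 31.4 to 39.2 CPM (median 36.3) in naive and at 33.8 to 44.5 CPM (median 38.6) in novelty libraries. Both pairs of groups overlapped, and the control novelty libraries fell into a lower pair and a higher trio.

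The averaged log2 difference of F3 was 0.20 ± 0.06, with an adjusted p of 0.02374 by edgeR. It did not pass without control novelty library 1 or without control novelty library 2 (highest adjusted p 0.05918). The titles number the libraries of each group. Among libraries numbered 1 to 3 the difference of F3 was 0.32 and among those numbered 4 or more 0.06. For the 6 other genes that passed, the values of the 2 parts were closer to each other. Ppp1r3c had 0.32 and 0.48, Gjb6 0.31 and 0.36, Glul 0.14 and 0.20, and Id4 0.14 and 0.23. Sox9 had -0.32 and -0.26, and Tril -0.12 and -0.20. All of these genes were selected by passing over the same 24 libraries, and no SE was computed within a part. The part of the library numbers in the F3 result was not tested beyond a fit with them as a covariate, where its log2 difference was 0.20 with an adjusted p of 0.01033 by edgeR.

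Tril encodes a membrane protein that takes part in Toll-like receptor signalling. It lies on the minus strand of chromosome 6 at 53815471 to 53820825, with Gm16499 annotated over its exons. Control naive libraries were at 43.9 to 54 CPM (median 48.9) and control novelty libraries at 40.5, 41.9, 42.4, 42.9 and 43.4 CPM, with no overlap. The cKO libraries were at 40.9 to 52 CPM (median 47.7) in naive and at 39.7 to 47 CPM (median 43.8) in novelty libraries, which overlapped. The log2 differences were -0.21 and -0.12, and the average of -0.16 ± 0.04 had an adjusted p of 0.0126 by edgeR.

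Plcd4, a phospholipase C, came nearest to passing among the rest, with an averaged log2 difference of 0.18 ± 0.06 and an adjusted p of 0.06638 by edgeR. It passed in the same comparison with limma-voom (adjusted p 0.0439) and with DESeq2 (adjusted p 0.0359). The growth factor receptor Fgfr3, the neurotensin receptor Ntsr2 and Gpr37l1 had averaged differences between -0.02 and 0.01. The 2 genes of extracellular proteins, the proteoglycan Bcan and Mfge8, had averaged differences of 0.00 and 0.01.

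**Figure D4:**
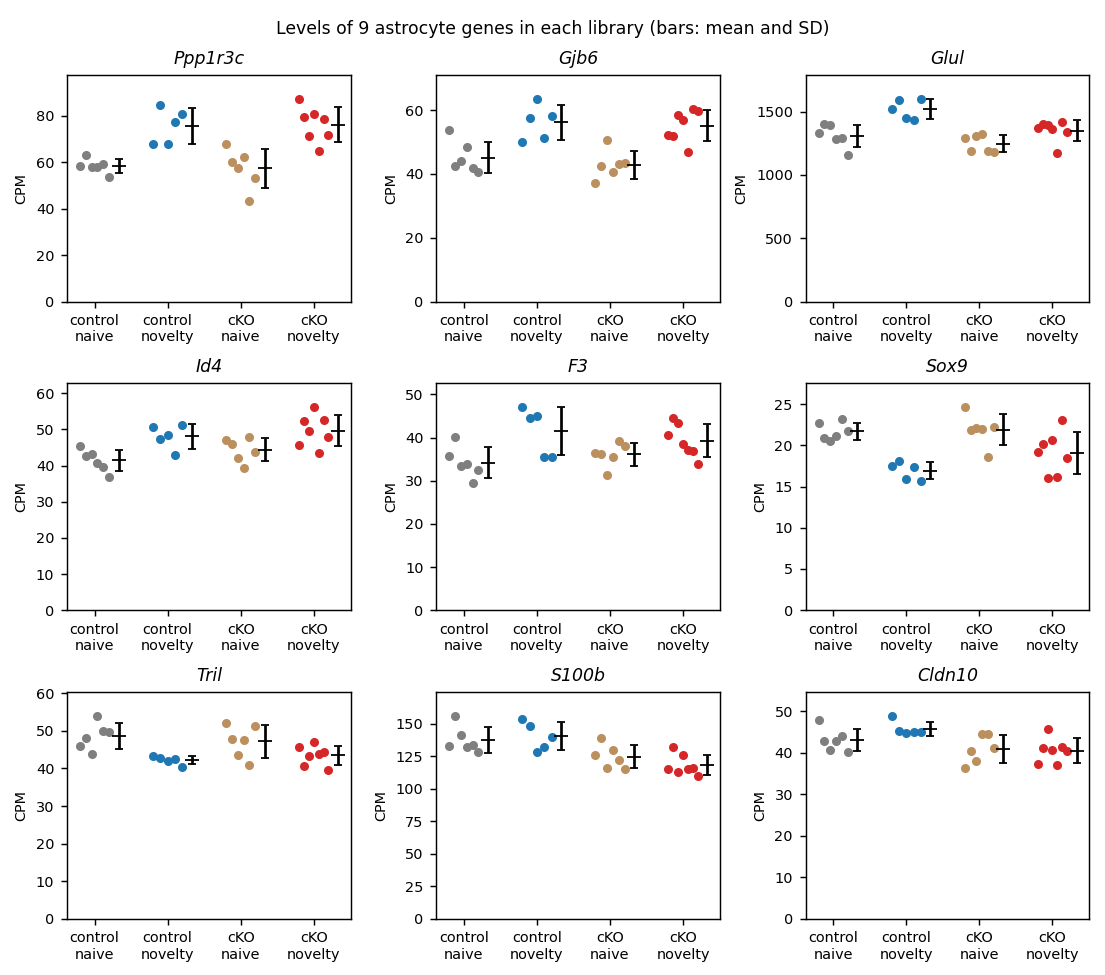
CPM of the 9 genes that passed in at least 1 test, with 1 point per library in replicate order and the mean and SD of each group beside it (axes start at 0). The means of Ppp1r3c and Gjb6 are higher in both novelty groups, those of Sox9 and Tril are lower, and that of S100b is lower in both cKO groups. Within a genotype, Ppp1r3c passed for novelty in both, Gjb6 in cKO mice only, Sox9 in control mice only and Tril in neither. For genotype, S100b passed after novelty and not in naive mice.

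Fewer of the 33 genes passed between cKO and control mice. In naive mice 0 of the 33 genes passed with edgeR, beside 0.801% of all genes (131 of 16360). At an unadjusted p below 0.05 by edgeR there was 1 of the 33, S100b, beside 13.6% of all genes (2223 of 16360). DESeq2 and limma-voom also passed 0 of the 33 with 1 at that level, beside 2198 and 2225 of all genes. After novelty 1 of the 33 passed, S100b, lower (3.03%), beside 4.53% of all genes (733 of 16188). Averaged over exposures 3 passed, S100b, Glul and Cldn10, all lower (9.09%), beside 12% of all genes (2017 of 16744). With edgeR the last 2 shares were below those of all genes. With DESeq2 the share after novelty was above that of all genes, with 4 of the 33 and 1161 of all genes passing. The medians of the 33 by edgeR were -0.02, -0.05 and -0.02 on the log2 scale, and those of all genes 0.00, 0.01 and 0.01.

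**Figure D5:**
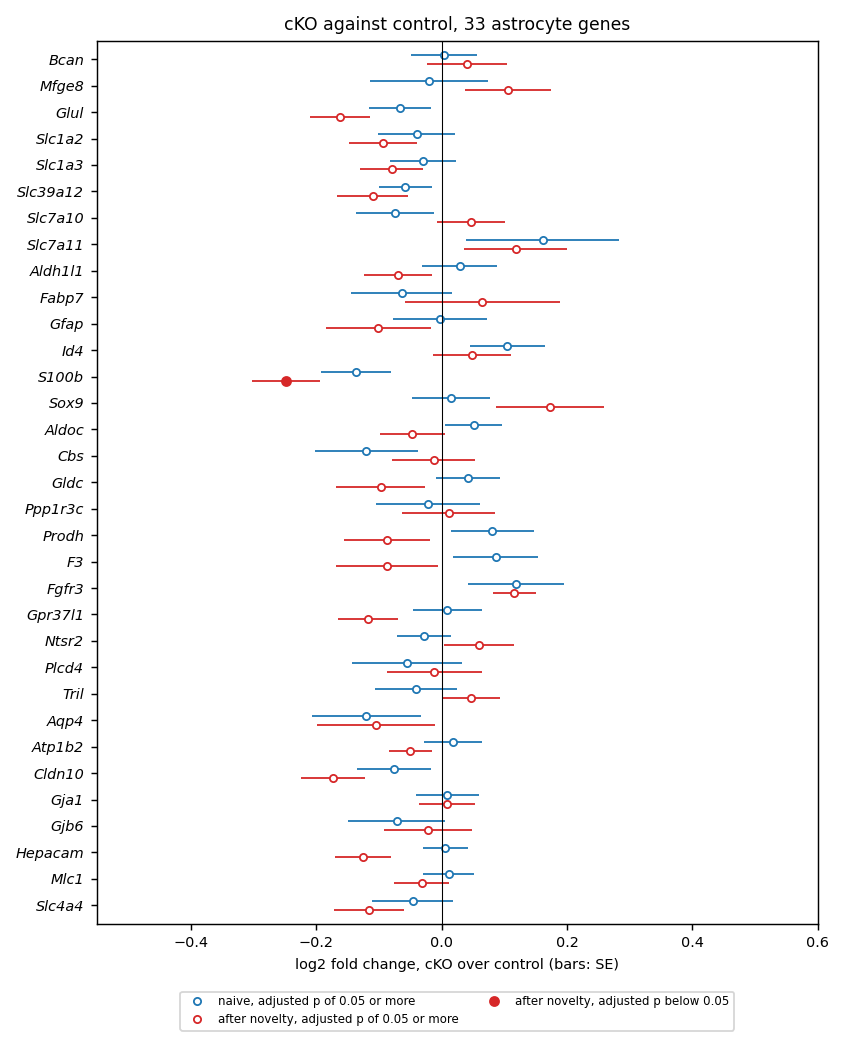
The log2 fold change of cKO over control, with its SE, for the 33 genes in naive mice (blue) and after novelty (red), grouped by role. The 1 filled point is S100b after novelty (-0.25).

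S100b encodes a calcium-binding protein that astrocytes also secrete, and its RNA is found in oligodendrocytes too. It lies on the plus strand of chromosome 10 at 76253853 to 76261159. Control novelty libraries were at 128, 132, 140, 148 and 154 CPM and cKO novelty libraries at 110 to 132 CPM (median 115). The groups overlapped, with 1 cKO library reaching the lower control values. The log2 difference was -0.25 ± 0.05, with an adjusted p of 0.01691 by edgeR, and S100b did not pass without control novelty library 2 (adjusted p 0.05867).

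In naive mice S100b was at 128 to 156 CPM (median 134) in control and 115 to 139 CPM (median 124) in cKO libraries. The difference there was -0.14 ± 0.06, with an adjusted p of 0.2918 by edgeR. Averaged over exposures S100b had a log2 difference of -0.20 ± 0.04, with an adjusted p of 0.001996 by edgeR, and it passed in all 24 fits that left out 1 library and under all 8 other settings.

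Glul was lower in cKO mice after novelty in all 7 libraries (1175 to 1423 CPM) than in all 5 control libraries (1430 to 1600 CPM). That log2 difference of -0.16 ± 0.05 had an adjusted p of 0.06338 by edgeR and did not pass. In naive mice it was -0.07 ± 0.05. Averaged over exposures it was -0.12 ± 0.04, with an adjusted p of 0.02989 by edgeR. It passed in 19 of the 24 fits that left out 1 library, the exceptions being control naive 3, control novelty 2 and 5, and cKO naive 2 and 6 (highest adjusted p 0.063).

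Cldn10, a claudin, lies on the plus strand of chromosome 14 at 118787871 to 118875489. It was at 40.3 to 47.8 CPM (median 42.9) in control naive, 36.3 to 44.6 CPM (median 40.8) in cKO naive and 37.1 to 45.8 CPM (median 40.8) in cKO novelty libraries. The control novelty libraries were at 44.7, 45, 45, 45.2 and 48.9 CPM, above all but 1 of the cKO novelty libraries. Averaged over exposures the log2 difference was -0.13 ± 0.04, with an adjusted p of 0.03495 by edgeR. It passed in 15 of the 24 fits that left out 1 library, the exceptions being control naive 1 and 5, control novelty 1 and 2, cKO naive 1, 2 and 3, and cKO novelty 1 and 5 (highest adjusted p 0.06775). Among libraries numbered 1 to 3 the difference was -0.18 and among those numbered 4 or more -0.07.

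With upper-quartile scaling the set that passed for genotype averaged over exposures changed to 1 higher and 1 lower gene. Fgfr3 was then higher in cKO mice (log2 difference 0.13, adjusted p 0.04924 by edgeR), S100b stayed lower, and Glul (adjusted p 0.05069) and Cldn10 (adjusted p 0.05249) did not pass. With TMM scaling Fgfr3 had a difference of 0.12 ± 0.04 and an adjusted p of 0.07406 by edgeR. Fgfr3 was at 96.3 to 127 CPM in control naive, 108 to 119.6 in control novelty, 103 to 131 in cKO naive and 118 to 126 in cKO novelty libraries, and the ranges overlapped.

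Of the genes with high levels, Glul and S100b passed for genotype, as given above, and others did not. The averaged log2 difference was -0.07 for Slc1a2, -0.06 for Slc1a3, 0.00 for Aldoc, -0.05 for Gfap, 0.01 for Gja1 and -0.12 for Aqp4, none of which passed. Ppp1r3c (-0.01), Gjb6 (-0.05), Tril (0.00) and F3 (0.00), which moved with novelty, also did not pass for genotype.

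Markers of other cell types moved with genotype beside these genes. Of 14 markers of myelinating oligodendrocytes, 10 were lower in the average over exposures and none higher, with a median log2 difference of -0.30, among them Mal (-0.32). Their summed level was 5310 to 5580 CPM in control naive, 4910 to 5990 in control novelty, 4400 to 5620 in cKO naive and 3400 to 6500 in cKO novelty libraries, and none of them was at 0 in any group. Of 11 markers of CA1 pyramidal neurons 5 were lower and none higher, with a median of -0.20. These shares were 71.4% and 45.5%, beside 12% of all genes. Also lower were 2 of 9 markers of oligodendrocyte precursors (22.2%), 4 of 10 of interneurons (40%) and 4 of 11 of dentate granule neurons (36.4%), with none higher. Of 15 markers of endothelium and pericytes 2 were lower (13.3%), a share near that of all genes. None of 16 microglia, 12 CA2 and CA3 or 9 choroid plexus and ependyma markers passed. The part of these cell types in the lower S100b, Glul and Cldn10 was not tested.

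For novelty the marker lists differed from each other in how many of their genes passed, beside 6.55% of all genes. Averaged over genotypes 1 of the 14 myelin markers was lower (Opalin, -0.28; 7.14%) and 0 of the 11 CA1 markers passed. Of 16 microglia markers 3 passed (18.8%), 1 higher (Tmem119, 0.14) and 2 lower (P2ry13, -0.40, and P2ry12, -0.16). Of 15 endothelial and pericyte markers 4 passed (26.7%), 2 higher and 2 lower, the glucose transporter Slc2a1 at 0.44 and Ly6c1 at 0.23 against Cldn5 at -0.32 and Pdgfrb at -0.20. None of the tested markers of oligodendrocyte precursors, interneurons, CA2 and CA3, dentate granule neurons, choroid plexus or ependyma passed. The log2 differences of Slc2a1 and P2ry13 were larger in size than that of any of the 33 genes in this comparison. Slc2a1 is made by astrocytes as well as by the vessel wall. The part of the vessel and microglia markers in the novelty results was not tested.

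The effect of novelty was compared between genotypes in 1 fit with an interaction term. With edgeR 0 of the 33 genes passed, and 0 of all 16744 genes (0%). At an unadjusted p below 0.05 there was 1 of the 33, Hepacam (-0.13 ± 0.05), and 688 of all genes. DESeq2 also passed 0, with 651 genes at that level, and limma-voom 0 with 760. The interaction values of the 33 lay between -0.17 (F3) and 0.16 (Sox9), with SE of 0.11 for both. Sox9, which passed in control and not in cKO mice, was thus not shown to respond differently by genotype, and the same holds for Gjb6 (interaction 0.05 ± 0.11).

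A further 40 genes of astrocytes were looked at for comparison. For novelty averaged over genotypes 5 were higher (12.5%, beside 6.55% of all genes) and none lower. Dio2, the deiodinase that makes active thyroid hormone, rose by 0.75 ± 0.06 with an adjusted p of 2.439e-08 by edgeR, a larger difference than that of any of the 33 genes. Acsl3, an acyl-CoA synthetase (0.18), Htra1, a secreted protease (0.19), Slco1c1, a thyroid hormone transporter (0.22), and Ezr, a protein of fine astrocyte processes (0.20), were the others. In cKO mice Etnppl also passed (1.10 ± 0.26, adjusted p 0.03812 by edgeR), from low levels, and Pla2g7 was lower (-0.18).

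For genotype averaged over exposures 2 of the 40 were higher, Agt, which encodes angiotensinogen (0.34), and Itih3 (0.20). Lower were Dio2 (-0.20), Slco1c1 (-0.15) and Pla2g7 (-0.14). These 5 of 40 (12.5%) were a share near that of all genes (12%). In naive mice 0 of the 40 passed by edgeR.

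Among 24 regulators of astrocyte transcription and genes of the Notch pathway, which maintains neural progenitors and favours glial fate, 1 was higher and 4 lower for novelty averaged over genotypes (20.8%, beside 6.55% of all genes). The receptor Notch1 (-0.36 ± 0.04, adjusted p 1.838e-06 by edgeR), its ligand Jag1 (-0.42), the target Heyl (-0.49) and the transcription factor Sox2 (-0.29), a factor of neural progenitors and astrocytes, fell. Stat3, a transcription factor of cytokine signalling, rose (0.15). For genotype averaged over exposures Hes5 (0.43) and Notch2 (0.13) were higher and Id2 (-0.23) lower (12.5%, beside 12% of all genes).

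Of 23 genes known to rise in reactive astrocytes, 18 had enough reads to be tested. For novelty averaged over genotypes 1 passed, the heat shock protein Hspb1 (0.53 ± 0.15, adjusted p 0.02544 by edgeR). This share (5.56%) was near that of all genes (6.55%). For genotype 0 passed, where 12% of all genes passed in the average over exposures. Hspb1 had a mean of 0.817 CPM in control naive and 1.1 CPM in control novelty libraries.

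The authors' deposited tables, made with DESeq2, gave more genes of all at an adjusted p below 0.05 in each comparison. They also gave more of the 33, except for genotype in naive mice. In the authors' deposited table for novelty in control mice there were 6: Ppp1r3c, Sox9, Glul, Gjb6, Tril and Id4, beside 447 of all 16041 genes. The authors' deposited table for novelty in cKO mice gave 3, Gjb6, Ppp1r3c and Plcd4, beside 715 of 16228. For genotype in naive mice the authors' deposited table gave 0, beside 515 of 16217. After novelty it was 4, with S100b, Glul and Cldn10 lower and Fgfr3 higher, beside 1312 of 16057.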

How the data were processed

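Counts came from the deposited files, as did the signals, log2 fold changes and p-values of the authors' comparisons. All other log2 fold changes and p-values were computed here from the counts. For each library the authors deposited raw counts per Ensembl gene, not normalized, and beside them 4 tables of pairwise comparisons. Per the file headers, the authors' comparison tables give for each gene a mean of normalised counts (a signal), the log2 fold change and its SE, and a p-value, raw and adjusted. The build GRCm38.p2 and the tools HTSeq, DESeq2 and STAR 2.3.0 are named per the submitters' processing notes. The annotation release and the strand setting: not given in the sources used here. Per the labels' protocols, a TruSeq RNA kit was used, which does not mark strand, and kits for both single-end and paired-end sequencing are named. Reads without a unique position (14.82 to 17.97% of a table's reads), reads without a gene (7.584 to 10.36%) and ambiguous reads (1.06 to 1.177%) stayed out of library sizes and tests.

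Counts of all genes were tested with edgeR 4.0.16 in R 4.3.3 (robust quasi-likelihood F test, TMM, filterByExpr at a minimum count of 10, Benjamini-Hochberg over all genes tested). Pairwise comparisons used their own groups, and the averages and the interaction a fit over all 24 libraries. The test was tested on simulated data. Alternatives were DESeq2 1.42.0, limma-voom (limma 3.58.1), RLE and upper-quartile factors, no filter or a minimum count of 50, a replicate block, the library numbers in 2 parts, and leaving out each library. The 2 parts, numbers 1 to 3 and 4 or more, are no batch given by the labels. CPM use TMM factors, log2 CPM a prior count of 2, and RPKM the summed exon length of GENCODE M21.

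The 33 genes and the other lists were chosen with earlier results of these data known. Levels in each group are given for genes that passed in at least 1 of 7 tests and for Gfap, Slc1a2 and Gja1. Control novelty libraries are listed singly, and the other groups are given as ranges and medians. Other lists are named by up to 4 genes with the smallest p, and markers of other cell types mostly by counts alone. Where 5 passed among the other astrocyte genes or the Notch list, the fifth is named too. That choice was made after the values were seen. The labels do not say that libraries of a group are separate mice, so p-values measure the spread between these libraries. No 2 of them had identical counts. The deposited tables named 16355 genes, the reference a further 20435, and 1565 had no symbol. Etnppl is Agxt2l1 in the deposited tables, and Lhfpl3 was not matched.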

Additional observations from a re-analysis of the deposited data

Results flagged for a closer look

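In each of the 4 groups the highest and the lowest library of each gene were compared with the rest of their group by Dixon's criterion. Of 132 such groups, 9 held a library far from the others, where chance gives about 1 in 20. Control novelty library 1 was low for Gja1 (277 CPM, others 302 to 312) and Mfge8 (119 CPM, others 141 to 150) and high for Cldn10 (48.9 CPM, others 44.7 to 45.2). Library 5 of cKO naive was low for Gja1 (258 CPM, others 294 to 314), Fgfr3 (103 CPM, others 123 to 131) and Fabp7 (23 CPM, others 30 to 33.8). Library 5 of cKO novelty was low for Glul (1170 CPM, others 1340 to 1420). Library 1 of cKO novelty was high for Fgfr3 (126 CPM, others 118 to 121). Control naive library 1 was high for Plcd4 (22.7 CPM, others 14.8 to 17.6).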

How the results depend on the processing

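No called value changed sign under any alternative, and the cause of the changes below was not tested. The count of the 33 astrocyte genes that passed for novelty averaged over genotypes, 7, was 7 or 8 under the 8 alternatives and 6 to 8 without a library, and it stayed 0 for genotype in naive mice and for the interaction in every fit. For novelty in control mice 2 passed, against 6 with DESeq2 and 4 with no filter. For novelty in cKO mice 2 passed, against 1 with no filter and 1 to 3 without a library. For genotype after novelty 1 passed, against 4 with DESeq2, 2 with upper-quartile factors, 2 at a minimum count of 50 and 0 to 3 without a library (0 without control novelty 2). For genotype averaged over exposures 3 passed, and 1 to 4 without a library (1 without control novelty 2 or cKO naive 2).

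A replicate block by the numbers in the titles left 1 gene for novelty in control mice (Ppp1r3c; Sox9 had a log2 difference of -0.365 and an adjusted p of 0.05015) and 1 for genotype averaged over exposures (S100b; Glul 0.05301, Cldn10 0.0745 by edgeR). The numbers share no stated origin: of 22 same-numbered pairs 3 correlated over 0.1 in their deviations (-0.128 to 0.278), and 5 of 22 correlated best with their own number.

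Of all genes, 196 passed for novelty in control mice, 393 for novelty in cKO mice, 733 for genotype after novelty and 131 for genotype in naive mice. With DESeq2 these were 361, 653, 1161 and 465, and with the replicate block 97, 207, 398 and 70. Without a library they ranged from 113 to 255 (113 without control novelty 2, 116 without control novelty 5, 128 without control naive 6), 238 to 452 (238 without cKO naive 2), 324 to 1025 (324 without control novelty 2, 364 without control novelty 5, 430 without cKO novelty 5, 473 without control novelty 3, 484 without cKO novelty 7) and 40 to 166 (40 without control naive 6, 47 without cKO naive 2, 55 without control naive 5, 58 without cKO naive 1, 59 without cKO naive 6, 80 without control naive 4 or cKO naive 5). Every one of the 33 genes had at least 175 reads in each library.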
